A study of Homo sapiens with 30 samples.

Results

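The genes described here are GAS5 and the numbered small nucleolar RNA host genes (SNHG1, SNHG3, SNHG5 and so on), chosen by gene name in the deposited count table. 23 of the table's 58780 genes carried such a name, and 20 of the 23 had enough counts to be tested. SNHG18 had 15 counts over all libraries, SNHG27 had 8 and SNHG28 (ENSG00000188004.10) had 0, so these genes appear in no comparison. The counts of members below are therefore over the 20 that passed the filter on low counts. A further 6 genes that GENCODE 29 names SNHG had no such name in the table and were not included. Among them was a second gene named SNHG28 (ENSG00000256029.6), which overlaps the first and had 349 counts over all libraries. It passed the filter but is not counted among the members.

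Nascent transcription was measured by PRO-seq (precision run-on sequencing), in which engaged RNA polymerases extend their transcripts with labelled nucleotides in permeabilised cells. The cells were A549, an established human lung adenocarcinoma line. There were 15 groups of 2 libraries, and every group, the untreated one included, received DMSO at 0.01%. Untreated cells were labelled with a time of 15 min, and no other group went without both Dex and inhibitor. Where groups of 2, 4 and 7 days are compared with it or with each other in time, inhibitor and time in culture cannot be told apart. Dexamethasone (Dex), a synthetic glucocorticoid, was given at 100 nM for 15 min or 3 h. GSK591, an inhibitor of the symmetric arginine methyltransferase PRMT5, and MS023, an inhibitor of the type I (asymmetric) arginine methyltransferases, were each given at 1 µM for 2, 4 or 7 days. Each inhibitor was also given together with Dex for 3 h, and before 15 min or 3 h of Dex after 7 days of inhibitor. Nothing in the labels says that the 2 libraries of a group came from separate cultures, so p-values measure the spread between these libraries, which may be technical. No methyltransferase activity was measured in these files.

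snoRNA host genes carry small nucleolar RNAs in their introns. The spliced exons of many of them code for no protein and are turned over by nonsense-mediated decay, while the snoRNAs released from the introns are kept and guide the modification of ribosomal and spliceosomal RNA. C/D box snoRNAs guide ribose methylation by fibrillarin, H/ACA box snoRNAs guide pseudouridylation by dyskerin, and scaRNAs are the related guides of Cajal bodies. Many host genes start transcription at a C followed by a run of pyrimidines, the 5′ terminal oligopyrimidine (TOP) motif shared with ribosomal protein genes. GAS5 is such a host, and its RNA is also known to bind the DNA-binding domain of the glucocorticoid receptor as a decoy.

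The 23 genes lay on 13 chromosomes. GENCODE 29 types 9 of them as processed transcripts, 7 as lincRNAs, 5 as antisense, 1 (SNHG32) as protein coding and 1 as sense overlapping. In the annotations used, 21 of the 23 held at least 1 small RNA gene of snoRNA type on their own strand, 48 in all. GENCODE 29 gave none inside GAS5, where RefSeq places 11.

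The start sites are shown because the members differed at this point. RefSeq promoter entries (GRCh38.p14) matched 21 of the 23 genes, all but SNHG15 and SNHG25. The starts of 7 members, or 33.3% of the 21, were a C followed by at least 3 pyrimidines, against 5.45% of the 35116 promoters in the table. Each window below runs from 20 bases before the RefSeq start to the start and the bases after it, 50 bases in all. Capitals mark the pyrimidine run that begins at the start, and the last pair of sequences, from members without such a run, has no capitals.
SNHG5: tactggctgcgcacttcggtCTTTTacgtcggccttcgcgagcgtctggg
SNHG7: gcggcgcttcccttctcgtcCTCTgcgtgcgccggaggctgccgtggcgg
SNHG12: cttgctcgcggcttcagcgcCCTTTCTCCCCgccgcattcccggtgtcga
SNHG19: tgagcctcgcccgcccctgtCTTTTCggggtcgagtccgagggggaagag
SNHG1: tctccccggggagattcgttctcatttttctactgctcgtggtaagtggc
SNHG17: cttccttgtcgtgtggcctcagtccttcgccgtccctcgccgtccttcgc

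The SNHG5 window is chr6:85678704-85678753 on the minus strand, that of SNHG7 is chr9:136728155-136728204 on the minus strand, and that of SNHG12 is chr1:28581844-28581893 on the minus strand. SNHG19 is at chr16:2155329-2155378, SNHG1 at chr11:62855856-62855905 and SNHG17 at chr20:38435299-38435348, all on the minus strand. The other starts with such a run were those of SNHG18, SNHG26 and SNHG32. The RefSeq start was within 10 bases of a GENCODE 29 transcript start for 16 of the 21 members. That of GAS5 lay 163 bases upstream of the nearest GENCODE 29 start, so its window is not printed and its lack of a run says nothing of the starts in use. The E-box CACGTG, a palindrome that reads the same on both strands, was found in the 300-base RefSeq promoter of 1 member, SNHG7, against 7.26% of all promoters.

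Library totals ran from 8441211 to 13069598 counts, of which mitochondrial genes took 58.7% to 78.7%. Nuclear genes had 2541528 to 3957508 counts per library, and the 23 members together 4917 to 11647, or 0.178% to 0.337% of the nuclear counts. The mitochondrial share was 73.4% and 76.0% in the untreated libraries and 58.7% to 66.1% in the MS023 libraries of 2, 4 and 7 days. With mitochondrial and ribosomal RNA genes left out of the fit, 199 of the results compared were the same and 1 was stronger. The part of the share itself in the results was not tested. The 4 epithelial marker genes examined (KRT8, KRT18, KRT19, EPCAM) had counts in every library. Of 7 markers of other cell types, CD3E (T cells) was at 0 in 21 of 30 libraries, PTPRC (leukocytes) in 13, ALB (hepatocytes) in 8, the endothelial genes CDH5 in 3 and PECAM1 in 1, and the fibroblast collagens COL1A1 and COL3A1 in 0. COL1A1 averaged 4.39 CPM (counts scaled to library size with TMM factors), beside 2.55 for EPCAM. The 7 together had 4.23 and 5.74 CPM in the untreated libraries and 9.42 and 10.6 after 7 days of MS023. COL1A1 (log2 fold change 1.14, edgeR adjusted p = 0.00108) and CDH5 (2.37, 0.0286) were called higher there, and the part of these markers in the results was not tested.

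Levels are given in CPM. Per kilobase of exon, SNHG25 was highest with a mean of 167 CPM per kb over the 30 libraries and SNHG19 next with 107. Both have under 400 bases of exon, 278 in SNHG25 and 342 in SNHG19. SNHG3 (33.0) and SNHG8 (32.4) followed at nearly the same level per kb, then SNHG29 (23.5), GAS5 (21.4) and SNHG7 (20.3). SNHG12, SNHG5, SNHG1 and SNHG15 lay between 8.66 and 11.1 CPM per kb, and SNHG31 was lowest of the tested members with 0.826. This order is a description, and neighbours in it were not tested against each other.

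With GSK591 transcription of most of the host genes was lower at 4 and 7 days, and no member was called higher. Summed over the 23 genes, the level was 864 and 881 CPM in the untreated libraries and 548 and 558 CPM after 4 days of GSK591. After 2 days 5 of the 20 tested members were lower, after 4 days 12 and after 7 days 12 (edgeR quasi-likelihood test, Benjamini-Hochberg adjusted p below 0.05). Of all 22919 genes tested, 2.45% were called lower and 3.19% higher on day 2, 8.28% and 8.91% on day 4, and 6.52% and 6.68% on day 7. Most members, 18 of the 20 tested, averaged 5 CPM or more. Over the 11117 genes at that level, the shares called lower were 4.34%, 13.4% and 11.1%. The members' median log2 fold change was -0.23 at 2 days, -0.47 at 4 days and -0.44 at 7 days, while the median of all genes was close to 0 under TMM scaling. Of the calls, 2 of 5 at 2 days (SNHG5 and GAS5), 9 of 12 at 4 days and 6 of 12 at 7 days were also made in every fit that left out 1 of the libraries compared.

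**Figure D1:**
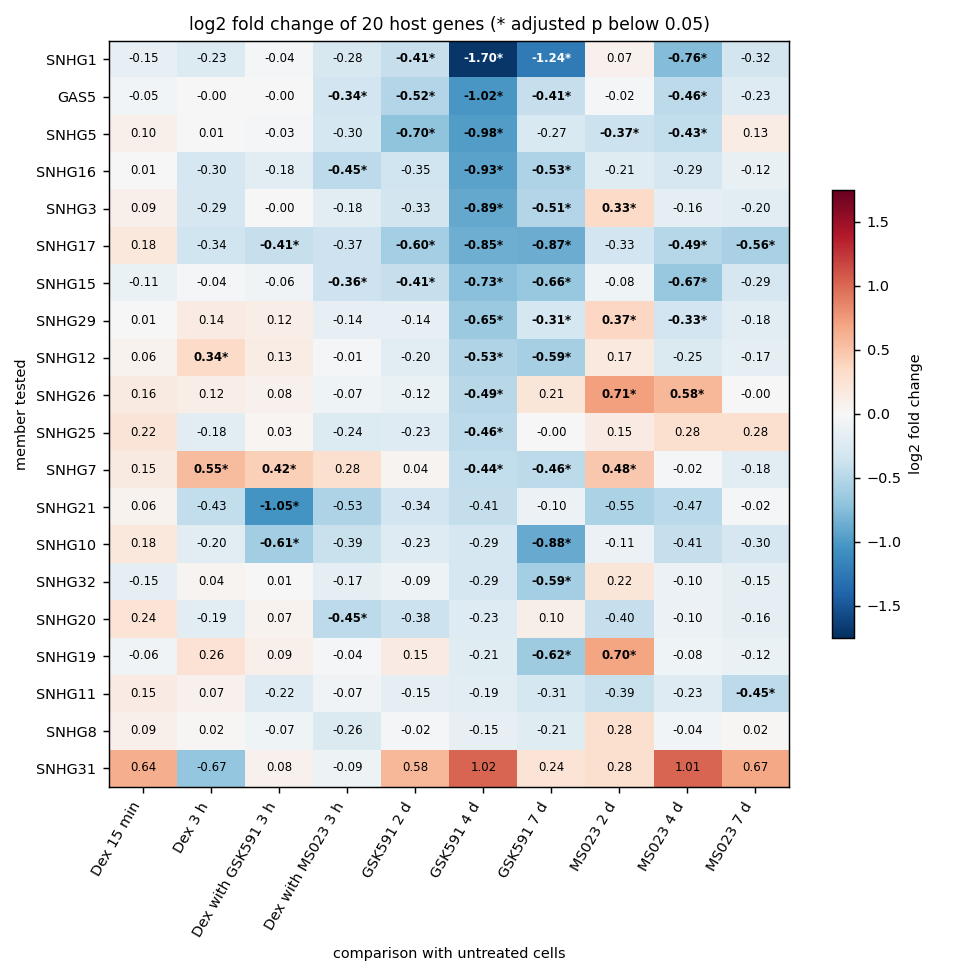
Heat map of log2 fold change against untreated cells for the 20 tested members (vertical axis) in 10 comparisons (horizontal axis), from the edgeR fit with TMM scaling. Asterisks mark adjusted p below 0.05. The GSK591 columns at 4 and 7 days hold 12 lower calls each, and the MS023 columns hold both directions. With total counts as the only scaling the MS023 columns shift upward by 0.68, 0.74 and 1.02, and 12, 11 and 19 members are called, all higher.

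These calls rest on TMM scaling. With total counts as the only scaling, the median of all genes moved by 0.29 on the log2 scale at 2 days and by 0.42 at 4 days of GSK591, and by -0.03 at 7 days. Under that scaling 0, 3 and 4 members were called at 2, 4 and 7 days, and 1 of the 3 at 4 days was higher. Relative to the median of all genes the members' median under that scaling was -0.23, -0.47 and -0.44.

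GAS5 (ENSG00000234741.7, chr1:173863900-173868882, minus strand) was transcribed at 92.0 and 89.5 CPM in untreated cells. It fell to 64.4 and 62.3 CPM by day 2 of GSK591 and to 44.1 and 45.6 by day 4, and stood at 66.6 and 70.2 on day 7. Every GSK591 library lay below both untreated ones, and the 4-day pair was lowest. The log2 fold change was -0.52 ± 0.11 (SE) at 2 days (edgeR adjusted p = 0.00171), -1.02 ± 0.11 at 4 days (8.19e-10) and -0.41 ± 0.11 at 7 days (0.00666). At 4 days the fitted level was 50.6% below untreated.

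SNHG1 (ENSG00000255717.6, chr11:62851988-62855914, minus strand), which hosts the C/D box snoRNAs SNORD22, SNORD25 to SNORD28 and SNORD30, showed the largest fall. Its untreated libraries had 48.6 and 44.5 CPM. GSK591 libraries of 2 days had 33.6 and 36.5 CPM, those of 4 days 14.6 and 14.0, and those of 7 days 20.3 and 19.0. No GSK591 library reached the untreated level, and the 4-day and 7-day pairs were the furthest from it. The log2 fold change was -1.70 ± 0.13 (SE) at 4 days (edgeR adjusted p = 9.16e-14), a level 69.2% below untreated, and -1.24 ± 0.13 at 7 days (1.16e-09). It was called lower at 4 and 7 days of GSK591 with total counts as the only scaling too.

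SNHG5 (chr6:85660950-85678748, minus strand), host of the C/D box snoRNA SNORD50B, had 29.1 and 32.3 CPM in untreated cells. By day 2 of GSK591 it had 19.9 and 17.9 CPM, by day 4 it had 15.5 and 15.6, and on day 7 it had 26.7 and 24.3. The 2-day and 4-day libraries were well below the untreated pair, and the 7-day pair was just below it. Its log2 fold change was -0.98 ± 0.13 (SE) at 4 days (edgeR adjusted p = 1.94e-07) and -0.27 ± 0.13 at 7 days (0.171). The 7-day difference did not pass the test.

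SNHG17 (chr20:38420588-38435353, minus strand), host of the H/ACA box SNORA71 snoRNAs, fell at all 3 times. It had 29.5 and 31.6 CPM in untreated cells and 20.3 and 20.1, 16.0 and 17.9, and 15.2 and 18.4 CPM at 2, 4 and 7 days of GSK591. Its log2 fold change was -0.60, -0.85 and -0.87 (SE 0.13 to 0.14, edgeR adjusted p from 7.55e-06 to 0.00414). SNHG15 (chr7:44983023-44986961, minus strand), host of SNORA9, went from 39.7 and 39.2 CPM to 24.0 and 23.6 at 4 days and 25.0 and 24.9 at 7 days. GAS5, SNHG1, SNHG15 and SNHG17 were the 4 members called lower at 2, 4 and 7 days of GSK591.

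SNHG3 (chr1:28505980-28510892, plus strand), host of the H/ACA box SNORA73 snoRNAs and the member with the highest CPM, had 155 and 157 CPM untreated. Day 2 of GSK591 gave 126 and 123 CPM, day 4 gave 74.1 and 94.0, and day 7 gave 106 and 112. Its log2 fold change was -0.89 ± 0.11 (SE) at 4 days (edgeR adjusted p = 2.06e-08) and -0.51 ± 0.11 at 7 days (0.000638). SNHG29 (chr17:16438822-16478678, plus strand), host of SNORD49 and SNORD65, fell from 88.9 and 105 CPM to 59.8 and 63.9 at 4 days. SNHG7 (chr9:136721366-136728184, minus strand), host of the SNORA17 snoRNAs, had 83.9 and 84.5 CPM untreated, 86.6 and 86.9 on day 2 of GSK591, 63.6 and 60.9 on day 4 and 54.6 and 67.7 on day 7. The 2-day SNHG7 libraries lay just above the untreated pair and the later ones below it.

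**Figure D2:**
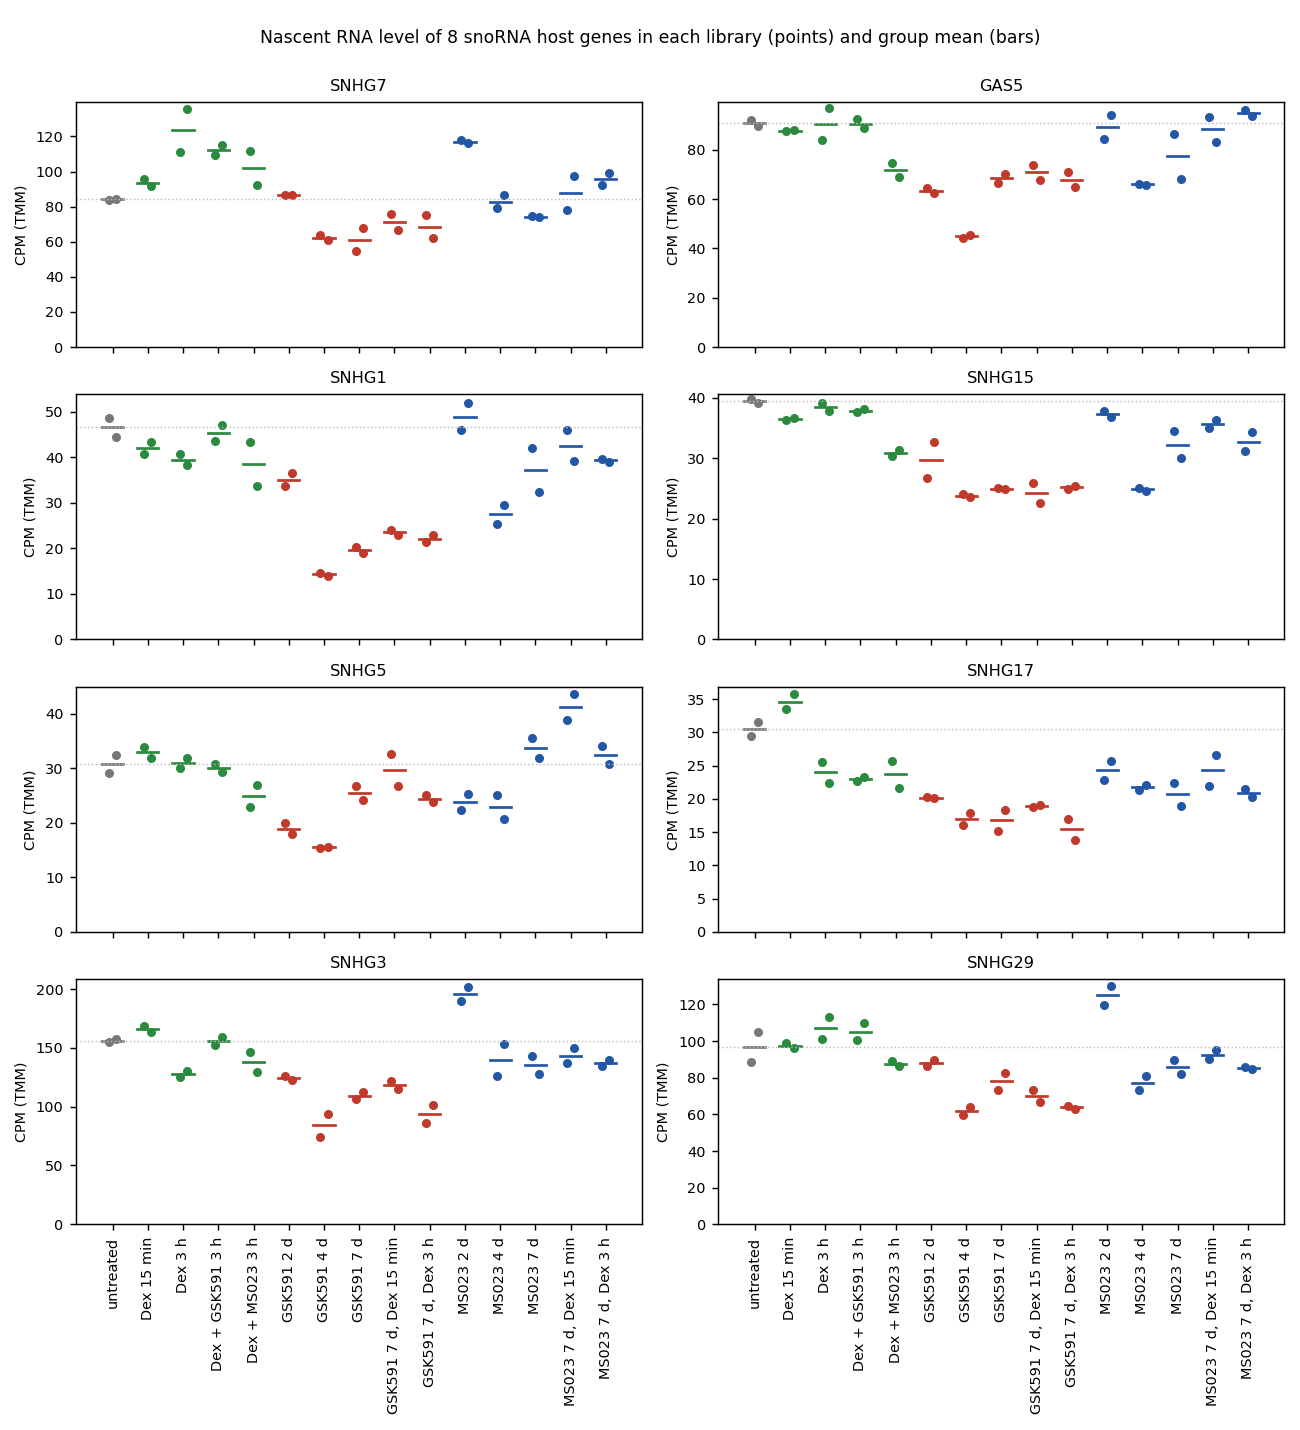
CPM per library (vertical axis, linear) of the 8 members described in full in each of the 15 groups (horizontal axis). Points are the 2 libraries, bars their mean, and the dotted line is the untreated mean. Colours give the treatment: grey untreated, green Dex alone or together with an inhibitor for 3 h. Red is GSK591 and blue MS023 for 2 days or more, with or without later Dex. GAS5 and SNHG1 are lowest at 4 days of GSK591 (44.1 and 45.6 CPM, and 14.6 and 14.0 CPM).

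The other members called lower at 4 days of GSK591 were SNHG16 (-0.93), SNHG12 (-0.53), SNHG26 (-0.49) and SNHG25 (-0.46). At 7 days SNHG10 (-0.88), SNHG19 (-0.62), SNHG32 (-0.59), SNHG12 (-0.59) and SNHG16 (-0.53) were also called. 9 members were called at both times. SNHG10, the host of the Cajal body RNA SCARNA13, had 13.0 and 14.8 CPM untreated, 11.3 and 11.4 at 4 days, and 8.72 and 6.30 at 7 days. SNHG8 and SNHG31 were called in none of the 21 comparisons of the design.

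The class of the hosted RNA divided the members as follows at 4 days of GSK591. Hosts of C/D box snoRNAs were lower in 5 of 7 tested, hosts of H/ACA box snoRNAs in 4 of 7, hosts of both classes in 3 of 3, and hosts of Cajal body RNAs in 0 of 3. The 3 hosts of Cajal body RNAs, SNHG10, SNHG20 and SNHG21, had log2 fold changes with a median of -0.29. Among genes of at least 5 CPM 13.4% were called lower at 4 days and 11.1% at 7 days. No test of the difference between classes was made. Of the tested members with a pyrimidine run at the RefSeq start, 4 of 6 were lower at 4 days, with a median of -0.46, and 4 of 6 at 7 days, with a median of -0.53. Of those with a RefSeq start and no run, GAS5 among them, 6 of 12 were lower at 4 days, with a median of -0.53, and 7 of 12 at 7 days, with a median of -0.36. The order of the medians thus turned between the 2 times. The split is uncertain for some members. The RefSeq start lay 62 bases from the nearest GENCODE 29 start for SNHG26, placed with a run, and 163 for GAS5, placed without. SNHG1, placed without, had a run of 3 bases.

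The 3 time points of GSK591 differed from each other. Of the 20 members, 10 had their lowest mean at 4 days, 9 at 7 days and 1 at 2 days. Tested directly, 6 members were lower at 4 days than at 2 days (2.25% of all genes were), SNHG1 most with a log2 difference of -1.29, and the SNHG1 call alone held in every fit that left out 1 of the libraries compared. Between 4 and 7 days 7 members rose (4.05% of all genes) and 1, SNHG19, fell (4.25% of all genes). Of these 8 calls 3 (GAS5, SNHG5 and SNHG26) held in every fit that left out a library, and those of SNHG1, SNHG19 and SNHG29 were lost in all 4 such fits. GAS5 rose by 0.61 ± 0.11 (SE, edgeR adjusted p = 0.000175) and SNHG5 by 0.71 ± 0.14 (0.000357) between 4 and 7 days, while SNHG17 did not pass the test. Under total-count scaling no member was called higher at 7 than at 4 days and 4 were called lower. With MS023 8 members were lower at 4 than at 2 days (2.69% of all genes), and between 4 and 7 days 3 rose (4.28%) and 1 fell (4.76%). With any 1 library left out, 4 of the 8 calls (SNHG1, SNHG15, SNHG19 and SNHG29) and 1 of the 4 (SNHG26) held. Under total-count scaling 1 member, SNHG1, was called between 2 and 4 days of GSK591 and 0 between 2 and 4 days of MS023. These steps between time points were added after the first comparisons had been seen.

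**Figure D3:**
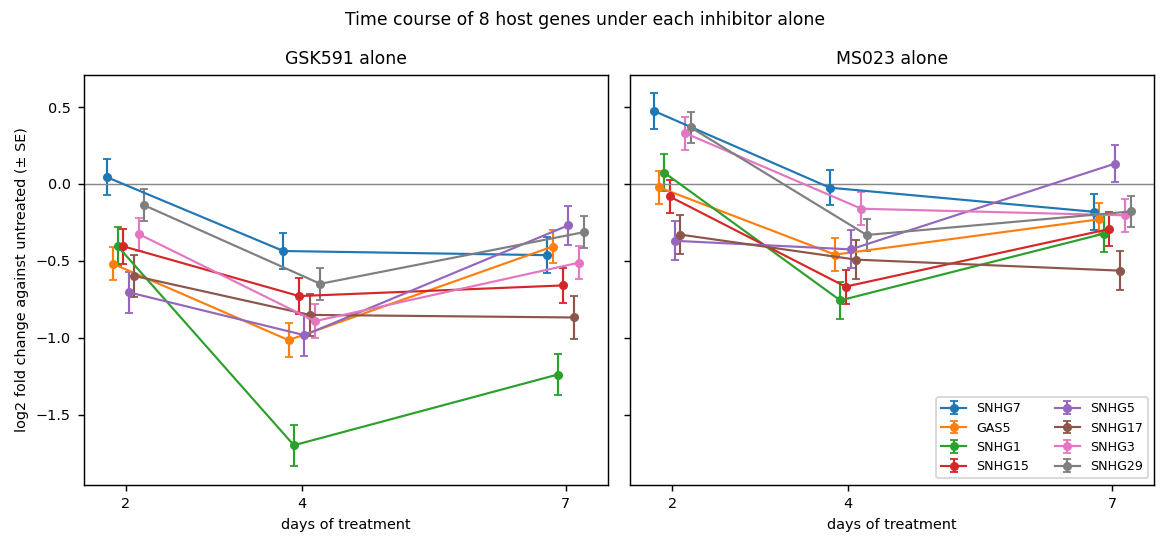
Log2 fold change against untreated cells (vertical axis, with SE bars) at 2, 4 and 7 days (horizontal axis), under TMM scaling. The left panel shows GSK591 and the right panel MS023, with lines coloured by gene for the 8 members described in full. GAS5, SNHG1 and SNHG5 are lowest at 4 days of GSK591 (-1.02, -1.70 and -0.98). With total counts as the only scaling the MS023 lines shift upward by 0.68, 0.74 and 1.02 at the 3 times, the median of all genes.

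With MS023 host genes were called in both directions. At 2 days 5 members were higher and 1 lower, at 4 days 1 higher and 6 lower, and at 7 days 0 higher and 2 lower. Of all genes tested, 6.18% were called higher and 4.21% lower on day 2, 7.80% and 6.37% on day 4, and 7.13% and 6.51% on day 7. Over genes of at least 5 CPM the shares lower were 6.80%, 9.96% and 10.6%, and the shares higher 9.35%, 9.63% and 7.65%. Members lower at 2 and 7 days, and higher at 4 and 7 days, were thus no more frequent than among those genes. The members' median log2 fold change was 0.11 at 2 days, -0.24 at 4 days and -0.17 at 7 days. Total-count scaling moved the median of all genes by 0.68, 0.74 and 1.02 at the 3 times, and then 12, 11 and 19 members were called, all higher. Relative to that median the members stood at 0.11, -0.23 and -0.17, so the directions below are relative to the bulk of genes.

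SNHG26, host of SNORD93, had 17.8 and 18.1 CPM in untreated cells, 30.3 and 28.6 CPM at 2 days of MS023, 25.9 and 28.0 at 4 days, and 17.9 and 17.9 at 7 days. Its 2-day and 4-day libraries stood above the untreated pair and its 7-day libraries did not. The log2 fold change was 0.71 ± 0.13 (SE) at 2 days (edgeR adjusted p = 0.000184) and 0.58 ± 0.13 at 4 days (0.00129). SNHG19, host of SNORD60, had 38.3 and 38.5 CPM untreated and 64.3 and 60.1 CPM at 2 days of MS023, a log2 fold change of 0.70 ± 0.11 (2.03e-05). SNHG26 and SNHG19 were the only members called at 2 days of MS023 in every fit that left out 1 of the libraries compared.

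SNHG7 (0.48), SNHG29 (0.37) and SNHG3 (0.33) were also higher at 2 days of MS023 and SNHG5 was lower (-0.37, edgeR adjusted p = 0.0497). At 4 days GAS5 had 66.1 and 65.9 CPM against 92.0 and 89.5 untreated, a log2 fold change of -0.46 ± 0.11 (SE, 0.00159). SNHG1 had 25.4 and 29.6 CPM at 4 days of MS023 against 48.6 and 44.5 (-0.76 ± 0.12, 1.06e-05), and SNHG15 had 25.1 and 24.6 against 39.7 and 39.2 (-0.67 ± 0.11, 1.67e-05). The libraries did not overlap in these 3 genes. Scaled by total counts alone, GAS5 (0.29) and SNHG15 (0.08) at 4 days changed sign and SNHG1 stood at -0.01.

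After 7 days of MS023 only SNHG17 (22.5 and 18.9 CPM against 29.5 and 31.6, log2 fold change -0.56 ± 0.13 SE, edgeR adjusted p = 0.00149) and SNHG11 (-0.45, 0.0237) were called. The GAS5 libraries at 7 days of MS023 were apart from each other, at 86.6 and 68.0 CPM, both below the untreated pair, and the fold change of -0.23 did not pass the test (0.143). Without replicate 2 of the 7-day MS023 group no member was called, and without replicate 1 of that group 4 were. The calls at 4 days of the 2 inhibitors shared the untreated libraries, and 7 members were called at 4 days of both, SNHG26 lower with GSK591 and higher with MS023.

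Compared directly at the same dose and time, 7 members at 2 days, 8 at 4 days and 7 at 7 days were lower with GSK591 than with MS023, and none was higher. The tests were adjusted over all genes at each of the 3 times, and 1.58%, 3.52% and 4.47% of all genes were called lower. SNHG1 differed by -0.48 at 2 days, -0.94 ± 0.13 (SE) at 4 days (edgeR adjusted p = 1.61e-06) and -0.92 ± 0.13 at 7 days (1.36e-06). GAS5 differed by -0.50 at 2 days and -0.56 ± 0.11 at 4 days (0.000394), and at 7 days by -0.18, with a 95% interval from -0.40 to 0.05. SNHG26 showed the largest difference at 2 days (-0.83) and at 4 days (-1.07 ± 0.14, 9.45e-08). SNHG15 differed by -0.06 at 4 days, with an interval from -0.31 to 0.18. SNHG1 was the 1 member called at 7 days in every fit that left out a library, and without replicate 1 of the 7-day MS023 group it was the sole call.

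Dex alone gave 0 called members after 15 min and 2 after 3 h. After 15 min of Dex 0 members were called by edgeR and 0 by DESeq2, and 0 had an unadjusted p below 0.05 (1.26% of all genes were called). After 3 h 2 of the 20 tested members were higher and 0 lower, against 6.11% and 4.41% of all genes and 9.56% and 6.67% of genes of at least 5 CPM, so the members' share was close to that of other genes. SNHG7 had 111 and 136 CPM after 3 h of Dex against 83.9 and 84.5 in untreated cells, above both, with a log2 fold change of 0.55 ± 0.12 (SE, edgeR adjusted p = 0.000545). Without replicate 2 of the 3 h Dex group the SNHG7 call was lost (adjusted p = 0.0700). SNHG12 had 64.0 and 67.2 CPM against 54.2 and 49.4 (0.34 ± 0.11, 0.0336), and its call was lost when any 1 of the 4 libraries compared was left out.

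GAS5 stood at 87.6 and 88.0 CPM after 15 min of Dex and at 84.2 and 96.8 after 3 h, on both sides of the untreated pair. The 3 h log2 fold change was 0.00 ± 0.11 (SE, edgeR adjusted p = 0.989), with a 95% interval from -0.23 to 0.22. A change of the size seen at 4 days of GSK591 lies outside that interval.

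Dex given for 3 h together with an inhibitor was compared with untreated cells and with Dex alone. Against untreated cells, Dex with GSK591 gave 1 higher member, SNHG7 (110 and 115 CPM, 0.42 ± 0.12 SE, edgeR adjusted p = 0.0103), and 3 lower, SNHG21 (-1.05), SNHG10 (-0.61) and SNHG17 (-0.41), against 7.02% of all genes higher and 4.86% lower. Dex with MS023 gave 4 lower, SNHG16 (-0.45), SNHG20 (-0.45), SNHG15 (-0.36) and GAS5 (74.7 and 69.1 CPM, -0.34 ± 0.11 SE, 0.0286), against 5.24% of all genes. None of these 8 calls held in every fit that left out 1 of the libraries compared, and DESeq2 called 1 and 0 members. With total counts as the only scaling GAS5 (0.15) and SNHG15 (0.13) changed sign, and the median of all genes moved by 0.51. Without replicate 1 of the untreated group 0 members were called in either comparison. Mitochondrial genes took 71.2% of counts in replicate 1 and 61.0% in replicate 2 of Dex with MS023, and the part of this gap in the result was not tested.

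Against Dex alone at 3 h, 0 members were called by edgeR for either combination (0.00% and 0.196% of all genes), and DESeq2 called 0 as well. At an unadjusted p below 0.05 there were 3 with GSK591 and 8 with MS023. GAS5 differed from Dex alone by -0.33 with MS023 (adjusted p = 0.139, 95% interval from -0.56 to -0.10) and by 0.00 with GSK591 (interval from -0.22 to 0.23).

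In cells held in an inhibitor for 7 days, Dex was added for 15 min or 3 h. After GSK591 0 members were called at either time by edgeR and 0 by DESeq2 (2.09% and 9.85% of all genes by edgeR), with 1 and 4 at an unadjusted p below 0.05. GAS5 had 71.1 and 64.8 CPM after 3 h of Dex in GSK591-treated cells against 66.6 and 70.2 before it, and the libraries overlapped. SNHG7 had 75.2 and 62.0 CPM against 54.6 and 67.7, which overlapped too (log2 fold change 0.17 ± 0.12 SE, edgeR adjusted p = 0.450).

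After 7 days of MS023, 15 min of Dex gave 2 higher members, SNHG11 and SNHG20 (both 0.48 ± 0.14 SE, edgeR adjusted p = 0.0485 and 0.0429), against 1.23% of all genes. DESeq2 called 0 of them. After 3 h of Dex SNHG11 (0.55, 0.00346) and SNHG7 (92.3 and 99.3 CPM against 74.6 and 74.0, 0.37, 0.0256) were higher and SNHG10 was lower (6.52 and 7.09 CPM against 12.0 and 10.6, -0.73, 0.00462), against 5.72% of all genes higher and 5.38% lower. The shares were 8.39% and 7.41% among genes of at least 5 CPM, so the members' share was close to that of other genes. GAS5 had 96.1 and 93.8 CPM against 86.6 and 68.0, above both libraries, and its change of 0.30 ± 0.10 did not pass the test (0.0552). None of the 2 calls at 15 min and the 3 at 3 h held in every fit that left out a library, and the SNHG7 call was lost in all 4 such fits (highest adjusted p = 0.199). Under total-count scaling 0 members were called at either time. Whether the response to 3 h of Dex differed between inhibitor-treated and other cells was tested as an interaction. For either inhibitor edgeR called 0 members and DESeq2 called 0, against 0.223% of all genes by edgeR for each, and 4 members with GSK591 and 6 with MS023 had an unadjusted p below 0.05. For SNHG7 the interaction was -0.38 ± 0.17 (SE) with GSK591 (edgeR adjusted p = 0.467) and -0.18 ± 0.16 with MS023 (0.792).

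The members' patterns over the 15 groups were alike to differing degrees. By the correlation of log2 mean CPM over the 15 groups, given as a description, the members most like GAS5 were SNHG1 (Pearson 0.863), SNHG15 (0.829) and SNHG5 (0.823). The median over the 190 pairs of tested members was 0.406 and the lowest was -0.548. The points share the library scaling and the untreated group.

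Overlapping genes limit some of these values, since the sources used here do not say whether counting used strand. Exons of another gene overlapped those of 11 of the 23 members, on the same strand in 5 and on the opposite strand in 8. Reads of the members in the opposite-strand case and of their partners cannot be told apart. At 4 days of GSK591 the antisense gene GAS5-AS1 went from 8.90 and 12.7 CPM to 5.57 and 6.32 (log2 fold change -0.87, edgeR adjusted p = 0.00314). LRRC75A, opposite SNHG29, fell by 0.86 (3.37e-08) and TRNAU1AP, opposite SNHG12, by 0.95 (1.59e-05). DIPK1B, opposite SNHG7, was lower too (-0.51, 0.00484), and after 3 h of Dex it was not called (0.30, 0.138). GLRX5, LOC122455342 and FSD2, opposite SNHG10, SNHG16 and SNHG21, were not called at 4 days of GSK591. RCC1, which shares its strand with SNHG3, did not pass the test (-0.14, 0.622). Among the 10 tested members with no overlap, which include SNHG1, SNHG5, SNHG15 and SNHG17, 4 were lower at 2 days of GSK591, 6 at 4 days and 4 at 7 days. Of all 20 tested members 5, 12 and 12 were lower, so most calls at 7 days were on members with an overlap. The shares lower among genes of at least 5 CPM were 4.34%, 13.4% and 11.1%.

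The hosted small RNAs themselves gave few counts. Of the 48 snoRNA-type genes inside members, 17 had any count and 9 were tested. Of the 31 that overlap an exon of their host in the annotation, 29 had 0 counts in every library, against 2 of the 17 that lie outside host exons. SNORD104, inside SNHG25, had 342 and 336 counts untreated and 627 and 693 at 2 days of MS023 (log2 fold change 0.80 ± 0.16 SE, edgeR adjusted p = 0.00161), while SNHG25 was not called there (0.15, 0.473). SNORA73B, inside SNHG3, had 77 and 100 counts untreated, 63 and 64 at 4 days of GSK591 and 139 and 172 at 2 days of MS023. Its log2 fold change was -0.58 ± 0.20 (SE, edgeR adjusted p = 0.0371) at 4 days of GSK591 and 0.66 ± 0.18 (0.0123) at 2 days of MS023, where SNHG3 was called in the same directions. At 7 days of MS023 SNORA73B was lower (-0.59 ± 0.19 SE, edgeR adjusted p = 0.0320) while SNHG3 was not called (-0.20, 0.210). SCARNA13, inside SNHG10, had 6 and 8 counts untreated and 1 and 0 at 4 days of GSK591, where it was called lower (edgeR adjusted p = 0.0160) and SNHG10 was not. Reads inside a snoRNA gene can come from the host's nascent transcript.

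Other genes of the same pathway were examined from lists. Of 38 other snoRNA host genes, most of them coding for ribosomal proteins or translation factors, 2 were lower at 2 days of GSK591, 25 at 4 days and 18 at 7 days, and none was higher. Their median log2 fold change was -0.30, -0.62 and -0.44 at the 3 times. At 4 days DKC1, which encodes dyskerin, stood at -1.39, NCL, which encodes nucleolin, at -1.33, and the ribosomal protein gene RPS12 at -1.07. Of 15 tested genes from a list of TOP genes, most of which act in translation, 3, 10 and 7 were lower at 2, 4 and 7 days. None was higher, and NPM1, which encodes nucleophosmin, stood at -1.14 at 4 days. The start sites of the genes in this list were not examined here. EEF1B2, EEF2, TPT1 and RACK1 are in both lists. Among all genes of at least 5 CPM, 4.34%, 13.4% and 11.1% were lower at the 3 times.

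The proteins that build and turn over these RNAs formed 2 further lists. Of 18 genes for snoRNP proteins and assembly factors, 2 were lower at 2 days of GSK591, 5 at 4 days and 5 at 7 days, and none was higher. NOP56 and DKC1 are also among the other snoRNA hosts above, and both were lower at 4 days (-0.63 and -1.39). FBL, which encodes fibrillarin, stood at -0.93 ± 0.20 (SE) at 7 days (edgeR adjusted p = 0.00231). Of 10 genes of nonsense-mediated decay, 0, 1 and 1 were lower (SMG8, -0.60 at 4 days). At 4 and 7 days this was 10% each, near the 13.4% and 11.1% of genes of at least 5 CPM. With MS023 the other snoRNA hosts gave 2 higher and 1 lower at 2 days, 12 lower at 4 days and 7 lower at 7 days, and the snoRNP list 3, 5 and 5 lower. Among genes of at least 5 CPM 6.80%, 9.96% and 10.6% were lower with MS023, and 9.35% higher at 2 days. No list was tested against another, and with total counts as the only scaling all fold changes shift by the medians given above.

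**Figure D4:**
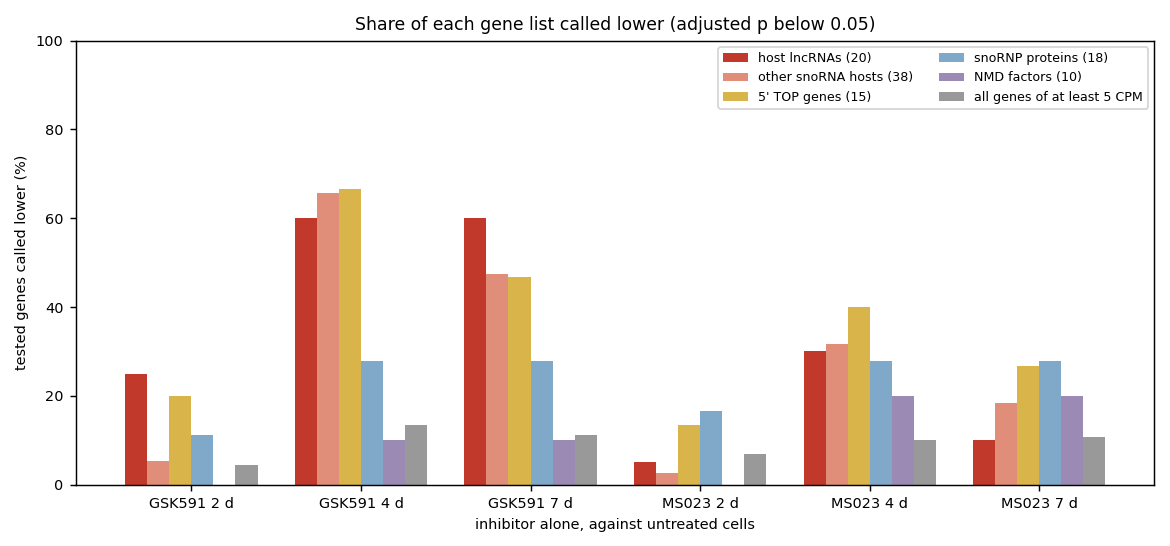
Percent of tested genes called lower against untreated cells (vertical axis, from 0) for the host genes, the 4 pathway lists and all genes of at least 5 CPM at 2, 4 and 7 days of GSK591 and MS023 (horizontal axis), under TMM scaling. At 4 days of GSK591, 12 of 20 members and 25 of 38 other snoRNA hosts were lower, beside 13.4% of genes of at least 5 CPM. The pathway lists share some genes. Under total-count scaling the MS023 fold changes shift upward by 0.68, 0.74 and 1.02.

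The authors' deposited tables, made from another counting, held 16 of the members, and no value for GAS5 was used from them. By the authors' deposited tables, the members lower numbered 2, 8 and 6 at 2, 4 and 7 days of GSK591, with none higher, against 9.16%, 14.0% and 13.0% of all genes there. Of these, 1, 6 and 6 were also called lower from the counts. An adjusted p was given there for 12, 14 and 14 members. For SNHG1 the authors' deposited table gave a log2 fold change of -1.52 (SE 0.376, adjusted p = 4.51e-05) at 4 days of GSK591. SNHG5 (-0.14, authors' adjusted p = 0.620) and SNHG16 (-0.37, 0.0647), called lower at 4 days from the counts, were not called in it. At 2 days SNHG7 was called lower by the authors' deposited table (-0.45, adjusted p = 0.0234) and not from the counts. For MS023 the authors' deposited tables called 5 members at 2 days, 4 of them higher, 3 at 4 days and 2 at 7 days, against 17.7%, 22.5% and 22.0% of all genes. For Dex alone at 3 h the authors' deposited table called 1 member, SNHG17, lower (-0.42, adjusted p = 0.00625), against 21.9% of all genes there, and shared no call with the counts, where SNHG7 and SNHG12 were higher. For Dex with MS023 the authors' deposited table called SNHG17 alone, against 19.8% of all genes, and shared none of the 4 calls made from the counts. For Dex with GSK591 it called SNHG17 and SNHG32, against 21.7%, and shared 1 call, SNHG17.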

How the data were processed

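Nascent RNA was measured by PRO-seq in 30 A549 libraries, 15 groups of 2. The authors deposited whole-number counts per gene, not normalised, counted with featureCounts 2.0.1 (Subread) on hg38 per the submitters' processing notes. The aligner, the feature type and the use of strand are not given in the sources used here. The authors also deposited comparison tables. Per the file headers, these hold a mean signal per gene (baseMean), a log2 fold change and p-values. These come from another counting: for SNHG1 the authors' mean was 54.3 and the mean count 367.

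Genes were filtered with filterByExpr (minimum count 10, minimum total 15), scaled by TMM and fitted with edgeR 4.0.16 (R 4.3.3, limma 3.58.1) by the robust quasi-likelihood method over all 15 groups, with 15 residual degrees of freedom and a biological coefficient of variation of 10.6%. P-values were Benjamini-Hochberg adjusted over the 22919 genes tested, and called means adjusted p below 0.05. Alternatives were DESeq2 1.42.0, its size factors used within edgeR, library totals with no further scaling, no filter on low counts, a fit of just the groups compared, a block for replicate number, and leaving out each library. A further fit left out mitochondrial and ribosomal RNA genes. The edgeR step was tested on simulated data. Replicates differed by more than sampling noise, and unevenly between groups. The chi-square per degree of freedom between replicates ran from 2.43 (MS023 4 d) to 45.6 (GSK591 7 d). The fit pooled the spread over all groups, and the part of this unevenness in the calls was not tested.

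Coordinates and types came from GENCODE 29, which matched all 58780 identifiers, and start sites from RefSeq GRCh38.p14. Members were named in full if they were GAS5 or among the 8 with a mean of at least 5 CPM that were called in the largest number of 17 comparisons (5 to 8), with ties settled by mean CPM, which left out SNHG16 and SNHG26 at 5. In each comparison up to 8 called members with the largest fold changes were named, and up to 3 called genes per list. Members and FBL named beyond that, and the genes that overlap members, were picked with their values known. The likeness to GAS5 used log2(CPM + 0.5). Members and lists were chosen with earlier results of these data known.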

Additional observations from a re-analysis of the deposited data

Results flagged for a closer look

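Differences between time points of the same inhibitor were tested directly in the edgeR quasi-likelihood fit, and 26 differences in members passed (Benjamini-Hochberg adjusted p below 0.05 over all genes). They are given as log2 differences of the later against the earlier time, and the comparisons were added after the data had been seen. Of all genes tested, 3.39% and 8.29% were called in the GSK591 steps to 4 and 7 days, and 4.91% and 9.04% in the MS023 steps. Most of the 26 differences were not called in every fit that left out a library. From 2 to 4 days of GSK591, SNHG1 differed by -1.29, SNHG16 by -0.58, SNHG3 by -0.57, SNHG29 by -0.51, GAS5 by -0.50 and SNHG7 by -0.48. From 4 to 7 days of GSK591, SNHG19 differed by -0.41, SNHG29 by 0.34, SNHG3 by 0.38, SNHG25 by 0.46, SNHG1 by 0.46, GAS5 by 0.61, SNHG26 by 0.70 and SNHG5 by 0.71.

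From 2 to 4 days of MS023, SNHG1 differed by -0.83, SNHG19 by -0.77, SNHG29 by -0.70, SNHG15 by -0.59, SNHG7 by -0.50, SNHG3 by -0.49, GAS5 by -0.44 and SNHG12 by -0.42. From 4 to 7 days of MS023, SNHG26 differed by -0.59, SNHG15 by 0.38, SNHG1 by 0.44 and SNHG5 by 0.56. The GAS5 differences from 2 to 4 days were lost in 2 of 4 fits that left out a library with GSK591 and in 3 of 4 with MS023. The mitochondrial share of counts was 69.5% to 70.3% at 4 days and 73.7% to 78.7% at 7 days of GSK591, and its part in these differences was not tested.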

How the results depend on the processing

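With total counts as the only scaling, the number of members called became 1 for Dex 3 h, 1 for Dex with GSK591 and 1 for Dex with MS023. It became 0 and 3 and 4 for GSK591 at 2, 4 and 7 days, 12 and 11 and 19 for MS023, and 12 and 20 for GSK591 against MS023 at 2 and 7 days. It became 0 for Dex for 15 min and 0 for 3 h after MS023, 1 and 4 for the GSK591 steps to 4 and 7 days, and 0 and 2 for the MS023 steps. Changes of sign under that scaling were GAS5 0.15 and SNHG15 0.13 for Dex with MS023, GAS5 0.65, SNHG15 0.59 and SNHG5 0.30 at 2 days of MS023, and SNHG7 0.72, GAS5 0.29, SNHG15 0.080, SNHG5 0.32, SNHG17 0.25, SNHG3 0.58 and SNHG29 0.40 at 4 days of MS023. At 7 days of MS023 they were SNHG7 0.84, GAS5 0.79, SNHG1 0.70, SNHG15 0.73, SNHG17 0.45, SNHG3 0.82 and SNHG29 0.83, and from 4 to 7 days of GSK591 SNHG3 -0.059 and SNHG29 -0.11. The shift of all genes under this scaling moves every value of a comparison by 1 amount.

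Without a filter the number called became 1 for Dex 3 h, 2 for Dex with MS023, 1 for MS023 7 d and 0 for Dex 15 min after MS023. DESeq2 gave 1 for Dex 3 h, 1 for Dex with GSK591, 0 for Dex with MS023, 3 for GSK591 2 d, 1 for MS023 7 d, 3 for GSK591 against MS023 at 7 d, 0 for Dex 15 min after MS023, 5 for the GSK591 step to 7 d and 2 for the MS023 step to 7 d. The compared groups fitted alone gave 0 for Dex with MS023, 5 for MS023 7 d and 4 for Dex 15 min after MS023. The cause of these changes was not tested.

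Leaving out 1 library at a time, where the lone sample left in a group is assumed to vary like the other groups, gave ranges of 0 to 2 for Dex 3 h (0 without its replicate 2), 0 to 4 for Dex with GSK591, 0 to 5 for Dex with MS023 (both 0 without untreated replicate 1), 0 to 3 for Dex with MS023 against Dex (3 without replicate 1 of the combination), 2 to 5 for GSK591 2 d (2 without untreated replicate 2) and 2 to 6 for MS023 2 d (2 without untreated replicate 1). The range was 0 to 4 for MS023 7 d (0 without its replicate 2), 3 to 7, 5 to 9 and 1 to 7 for GSK591 against MS023 at 2, 4 and 7 d (1 without MS023 7 d replicate 1), 0 to 2 and 1 to 3 for Dex 15 min and 3 h after MS023, 1 to 6 and 4 to 8 for the GSK591 steps (1 without GSK591 4 d replicate 1), and 4 to 8 and 1 to 4 for the MS023 steps. It was 9 to 12 for GSK591 4 d, 8 to 12 for GSK591 7 d and 5 to 7 for MS023 4 d. Every called member kept its sign.

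Replicate numbers do not pair the samples: of 105 pairs of groups, 21 had a correlation of same-numbered deviations over 0.1 (median 0.021). With the replicate block 6, 12 and 12 members were called at 2, 4 and 7 d of GSK591, and no count moved by over 1.5 times. Depth limits SNHG21 and SNHG31, with 1048 and 558 counts over 30 libraries.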
